A study of Mus musculus with 8 samples.

Results

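The 10 matrix metalloproteinase (Mmp) genes of the mouse chromosome 9 cluster, Mmp1a, Mmp1b, Mmp3, Mmp7, Mmp8, Mmp10, Mmp12, Mmp13, Mmp20 and Mmp27, were taken by gene symbol from the platform's probe set annotation. All 10 were measured, among 22180 genes in all. For a gene with several probe sets, the brightest on average was used. Cells in both groups were primary articular chondrocytes, which build and keep joint cartilage. They were taken from the femoral and tibial knee cartilage of wild-type ICR mice aged 5 days. Both groups had received an adenovirus. The 4 Ad-null cultures carried a control virus, and the 4 Ad-Zip8 cultures carried a virus that expresses ZIP8, a zinc importer encoded by Slc39a8. RNA was taken 24 h after infection, and no uninfected cells were among the samples. The sources used here do not give the promoter that drives ZIP8 in the virus. The labels call the arrays biological replicates without saying whether the cultures came from separate animals, so p-values reflect only how far these cultures differ, which may be technical.

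Matrix metalloproteinases are secreted or membrane-bound enzymes that hold a zinc ion in the catalytic site and are made as inactive precursors. Collagenases cut the triple helix of fibrillar collagen, stromelysins cut proteoglycans and activate other precursors, and matrilysin and macrophage elastase cut a broad range of matrix proteins. In cartilage, MMP13 is the main enzyme known to cleave collagen II, and inflammatory signals are known to raise MMP3 and MMP13 in chondrocytes.

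The 120 bases before the transcription start are shown for the 4 members that rose with ZIP8 and 2 that did not pass the test. These stretches show which of them share the AP-1 letters and the letters TATAAA. They come from RefSeq (GRCm38.p6), whose promoter table matched all 10 members with 12 starts. All stretches lie on the plus strand. They span chr9:7272394-7272513 for Mmp13, chr9:7344277-7344396 for Mmp12, chr9:7445702-7445821 for Mmp3, chr9:7502222-7502341 for Mmp10, chr9:7464021-7464140 for Mmp1a and chr9:7558309-7558428 for Mmp8. Capitals mark TGANTCA, the letters bound by AP-1 (Fos and Jun dimers), and TATAAA within 50 bases of the start.
Mmp13: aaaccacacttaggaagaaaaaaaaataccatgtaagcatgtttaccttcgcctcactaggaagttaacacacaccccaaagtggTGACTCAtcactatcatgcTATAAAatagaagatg
Mmp12: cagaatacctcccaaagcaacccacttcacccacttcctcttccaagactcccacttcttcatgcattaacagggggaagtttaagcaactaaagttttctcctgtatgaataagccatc
Mmp3: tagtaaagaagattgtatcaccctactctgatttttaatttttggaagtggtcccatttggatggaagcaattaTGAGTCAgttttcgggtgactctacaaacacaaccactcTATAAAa
Mmp10: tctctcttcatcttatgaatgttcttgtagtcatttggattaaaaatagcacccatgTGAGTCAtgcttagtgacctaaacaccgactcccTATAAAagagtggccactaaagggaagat
Mmp1a: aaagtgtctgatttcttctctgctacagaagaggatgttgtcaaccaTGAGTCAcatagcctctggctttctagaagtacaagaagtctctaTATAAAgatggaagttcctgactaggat
Mmp8: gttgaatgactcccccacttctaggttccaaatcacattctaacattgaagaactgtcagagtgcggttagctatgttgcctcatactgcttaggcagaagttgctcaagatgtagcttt

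TGANTCA was searched on both strands from 250 bases before to 50 bases after the start. It was found for 8 of the 10 members, at 8 of their 12 starts, against 7.81% of all 32851 promoters in the table. In Mmp13 the letters lay 35 to 29 bases before the start, in Mmp3 46 to 40 bases and in Mmp10 63 to 57 bases. Mmp12 had them only at its second listed start, which lies inside the gene. Of the 4 members that rose, 4 held the letters, and of the 6 that did not pass the test, 4 held them (Mmp1a, Mmp1b, Mmp7 and Mmp20), so the letters did not separate the 2 sets. TATAAA was searched on both strands in the 50 bases before the start. It was found for 6 members, Mmp1a, Mmp1b, Mmp3, Mmp7, Mmp10 and Mmp13, at 6 of the 12 starts, against 3.50% of all promoters. These letters lay 7 to 2 bases before the start in Mmp3, 16 to 11 in Mmp13 and 49 to 44 in Mmp1b. In Mmp10, Mmp1a and Mmp7 they lay between 29 and 21 bases before it. Whether they are TATA boxes, and how exact the listed starts are, was not tested. The core of the metal response element, bound by the zinc-sensing factor MTF1, was searched as TGCACNC or TGCGCNC. It was found for 1 member, Mmp7, at 2 of the 12 starts, and in 25.7% of all promoters. GGAA, the Ets core, was found in the 100 bases before the start for 9 members, at 10 of the 12 starts, against 66.8% of all promoters. An NF-kB site (4.51% of all promoters) and the C/EBP letters TTGCNNCAA (2.08%) were found for 0 members. A match is a description of letters in these windows.

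Slc39a8 served as the check of the labels. It read 6.12 to 6.27 on the Ad-null arrays and 10.90 to 11.24 on the Ad-Zip8 arrays, on the log2 scale of the deposited values. Of 12 chondrocyte markers, none had a mean below the median of all genes. The mean of this list was 12.2 to 12.3 on the Ad-null arrays and 11.5 to 11.8 on the Ad-Zip8 arrays. Of its members, 10 fell (7 to 10 with each array left out in turn) and 2, Col2a1 and Sox9, did not pass. With a variance trend, or with dim genes left out, 12 of 12 fell, Sox9 at adjusted p-values of 0.0207 and 0.0431. In a bulk sample, fewer cells of a type and less RNA per cell cannot be told apart. Over all genes 10.6% passed the test (5.48% higher and 5.12% lower). The test throughout is limma's moderated linear model, Ad-Zip8 minus Ad-null, Benjamini-Hochberg adjusted over the 22180 genes, with a threshold of 0.05.

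Mmp3, Mmp12, Mmp13 and Mmp10 rose in the Ad-Zip8 cells, by 63.7-fold, 3.94-fold, 21.3-fold and 1.78-fold in that order, while the other 6 members did not pass. Of the 10 members, 4 rose, against 5.48% of all genes, and 0 fell in the limma fit, with 0 lower at an unadjusted p under 0.05 and 0 lower by an exact permutation test. The same 4 members had every Ad-Zip8 array above every Ad-null array, which held for 7.89% of all genes, and 0 members had every Ad-Zip8 array below (9.74% of all genes). A rise of at least 2-fold past the test was seen in 3 members, Mmp3, Mmp12 and Mmp13, and in 1.12% of all genes. The median log2 difference of the members was 0.30, against -0.02 over all genes.

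**Figure D1:**
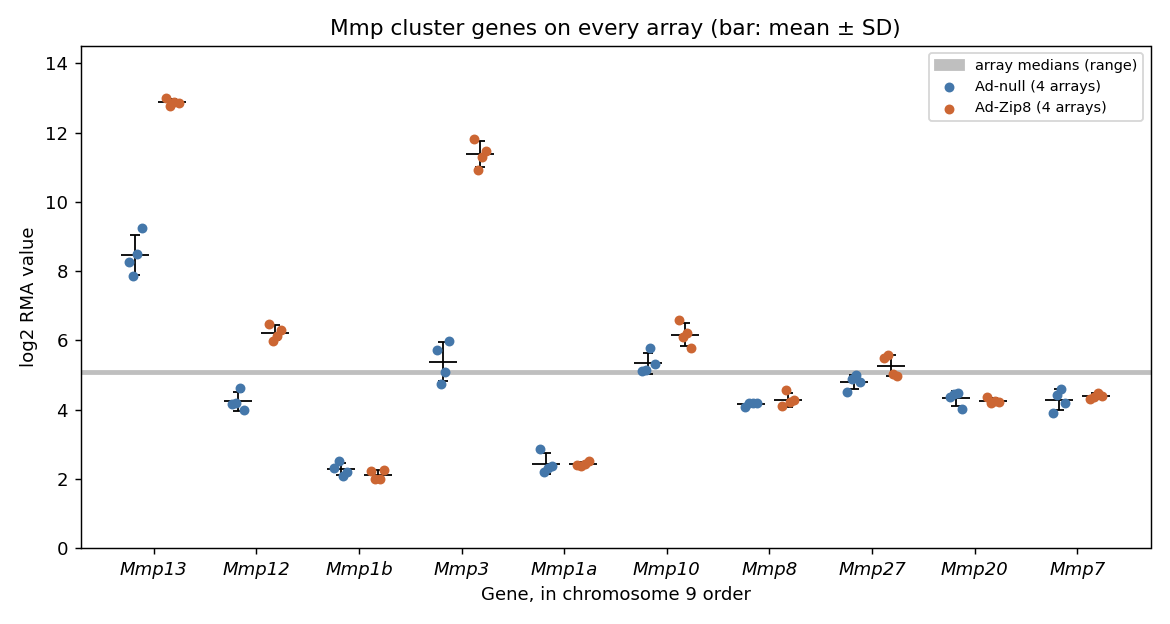
Deposited log2 value (vertical axis) of each cluster gene on every array, in chromosome order (horizontal axis), Ad-null in blue and Ad-Zip8 in orange; black bars are the mean ± SD of 4 arrays and the grey band is the range of the array medians. Both groups are apart for Mmp13, Mmp12, Mmp3 and Mmp10, by little for Mmp10; levels of different genes are not comparable on this scale.

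The stromelysins were Mmp3 and Mmp10. Mmp3, which encodes stromelysin 1, read 5.73, 4.75, 5.09 and 5.97 in Ad-null replicates 1 to 4 and 11.82, 10.92, 11.29 and 11.47 in Ad-Zip8 replicates 1 to 4, as log2 values. The groups were far apart, and replicate 2 was the lowest array in both. The mean went from 5.38 ± 0.56 to 11.4 ± 0.38 (SD, n = 4 each), a log2 difference of 5.99 (SE 0.27, 95% interval 5.38 to 6.60, limma adjusted p = 2.10e-06). This is 63.7-fold, with an interval of 41.8 to 97.0. It was the highest point estimate of the 22180 genes. The log2 intervals of Cxcl3 (5.19 to 6.46) and Saa2 (5.10 to 6.46), whose Ad-null means were only 2.76 and 3.49, overlapped that of Mmp3. Mmp3 itself read 4.75 and 5.09 in Ad-null replicates 2 and 3, below and within the array medians of 5.04 to 5.11. The share of background in these readings was not tested.

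Mmp10, which encodes stromelysin 2, read 5.13, 5.14, 5.77 and 5.31 in the Ad-null replicates and 6.58, 6.10, 6.20 and 5.78 in the Ad-Zip8 replicates. The highest Ad-null array (5.77) and the lowest Ad-Zip8 array (5.78) nearly touched. Its mean went from 5.34 ± 0.30 to 6.17 ± 0.33 (SD, n = 4 each), a log2 difference of 0.83 (SE 0.19, 95% interval 0.41 to 1.24, limma adjusted p = 0.0186). This call is the least firm of the 4. It was lost without Ad-null replicate 1 (adjusted p = 0.0578), replicate 2 (0.0535) or replicate 4 (0.0502), with the log2 difference at 0.76, 0.76 and 0.82. The intervals of the 2 stromelysins did not overlap, with a change of 1.33- to 2.37-fold for Mmp10.

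The genes named as collagenases were Mmp13, Mmp8, Mmp1a and Mmp1b. Mmp13, which encodes collagenase 3, read 8.26, 7.87, 8.49 and 9.26 in Ad-null replicates 1 to 4 and 12.98, 12.78, 12.89 and 12.87 in Ad-Zip8 replicates 1 to 4. The Ad-null arrays covered 1.39 log2 units and the Ad-Zip8 arrays 0.20, close to the top of a scale that ended at 13.8. The mean went from 8.47 ± 0.58 to 12.9 ± 0.08 (SD, n = 4 each), a log2 difference of 4.41 (SE 0.24, 95% interval 3.88 to 4.94, limma adjusted p = 5.04e-06). This is 21.3-fold (interval 14.7 to 30.8). Saturation of the probe set was not tested.

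Mmp8, which encodes the collagenase of neutrophils, read 4.09 to 4.20 on the Ad-null arrays and 4.09 to 4.56 on the Ad-Zip8 arrays, and the groups overlapped. Its log2 difference was 0.12 (95% interval -0.11 to 0.34, limma adjusted p = 0.562). Mmp1a and Mmp1b, a pair of closely related rodent genes, read at the low end of the scale on every array. Mmp1a read 2.88, 2.19, 2.30 and 2.38 with Ad-null and 2.40, 2.36, 2.45 and 2.51 with Ad-Zip8, and Mmp1b lay between 1.99 and 2.51 over all 8 arrays. Their log2 differences were -0.01 (interval -0.31 to 0.30) and -0.16 (interval -0.40 to 0.07), with limma adjusted p-values of 0.987 and 0.420. Whether probes of the pair read both genes was not tested.

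Mmp12, which encodes macrophage elastase, read 4.17, 4.20, 4.63 and 3.98 in the Ad-null replicates and 6.47, 5.99, 6.13 and 6.30 in the Ad-Zip8 replicates. All Ad-null arrays lay below the array medians of 5.04 to 5.11 and all Ad-Zip8 arrays above them. The mean went from 4.24 ± 0.27 to 6.22 ± 0.21 (SD, n = 4 each), a log2 difference of 1.98 (SE 0.15, 95% interval 1.65 to 2.31, limma adjusted p = 3.53e-05). This is 3.94-fold (interval 3.13 to 4.95). The share of background in the low Ad-null readings was not tested. Of 12 macrophage markers, Cd68 rose and Laptm5 fell, and the other 10 did not pass. Over all genes 5.48% rose and 5.12% fell. The mean of the macrophage list was 4.83 to 5.04 on the Ad-null arrays and 4.91 to 4.97 on the Ad-Zip8 arrays.

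Mmp27, a little-studied member, had groups that met. It read 4.52, 4.88, 4.99 and 4.79 with Ad-null and 5.50, 5.57, 5.03 and 4.98 with Ad-Zip8. The 2 higher Ad-Zip8 arrays were replicates 1 and 2, and the other 2 lay beside the top Ad-null array. Its log2 difference was 0.47 (95% interval 0.13 to 0.82), which did not pass after adjustment over all genes (limma adjusted p = 0.0916) nor under any of 14 alternatives that kept the gene (lowest 0.0579).

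Mmp7 encodes matrilysin and Mmp20 encodes enamelysin, an enzyme known for tooth enamel. Mmp7 covered 3.90 to 4.61 on the Ad-null arrays and 4.30 to 4.49 on the Ad-Zip8 arrays, with a log2 difference of 0.11 (interval -0.20 to 0.41, limma adjusted p = 0.724). Mmp7 was the 1 member with several probe sets, and its other one had a difference of -0.01. Mmp20 covered 4.02 to 4.48 and 4.20 to 4.35, with a difference of -0.07 (interval -0.31 to 0.16, limma adjusted p = 0.759). In both genes the Ad-Zip8 arrays lay within the range of the Ad-null arrays. In all, 5 members (Mmp1a, Mmp1b, Mmp7, Mmp8 and Mmp20) had both group means below the array medians, where background limits what can be seen.

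An exact two-sided permutation test over the 70 splits of the 8 arrays gave p = 0.0286, the smallest it can give, for Mmp3, Mmp10, Mmp12 and Mmp13. Every gene whose groups lie fully apart gets this unadjusted p, so it adds nothing to the separation already described. Over all genes 7.89% had every Ad-Zip8 array above every Ad-null array, and 9.74% had every one below. For Mmp27 the same exact test gave p = 0.0571. This test exchanges arrays freely. Within the 4 same-numbered pairs there are 16 sign assignments, for which an exact two-sided test cannot give a p below 0.125. Among the Ad-Zip8 arrays, replicate 1 had the highest value of Mmp3, Mmp10, Mmp12 and Mmp13, and replicate 2 had the lowest value of Mmp3, Mmp12 and Mmp13. Slc39a8 was also lowest in Ad-Zip8 replicate 2 (10.90), but replicate 3 (11.24), not replicate 1 (11.16), was its highest. Among the Ad-null arrays, replicate 4 was the highest and replicate 2 the lowest for both Mmp3 and Mmp13. Replicate 3 was the highest for Mmp7, Mmp10, Mmp12, Mmp20 and Mmp27. Same-numbered arrays differed by 5.51 to 6.20 for Mmp3, 3.61 to 4.91 for Mmp13, 1.50 to 2.32 for Mmp12 and 0.43 to 1.46 for Mmp10, as log2 differences, all positive. All 4 such differences were also positive for Mmp27 (0.04 to 0.98) and Mmp8 (0.0029 to 0.37), which did not pass the limma test.

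**Figure D2:**
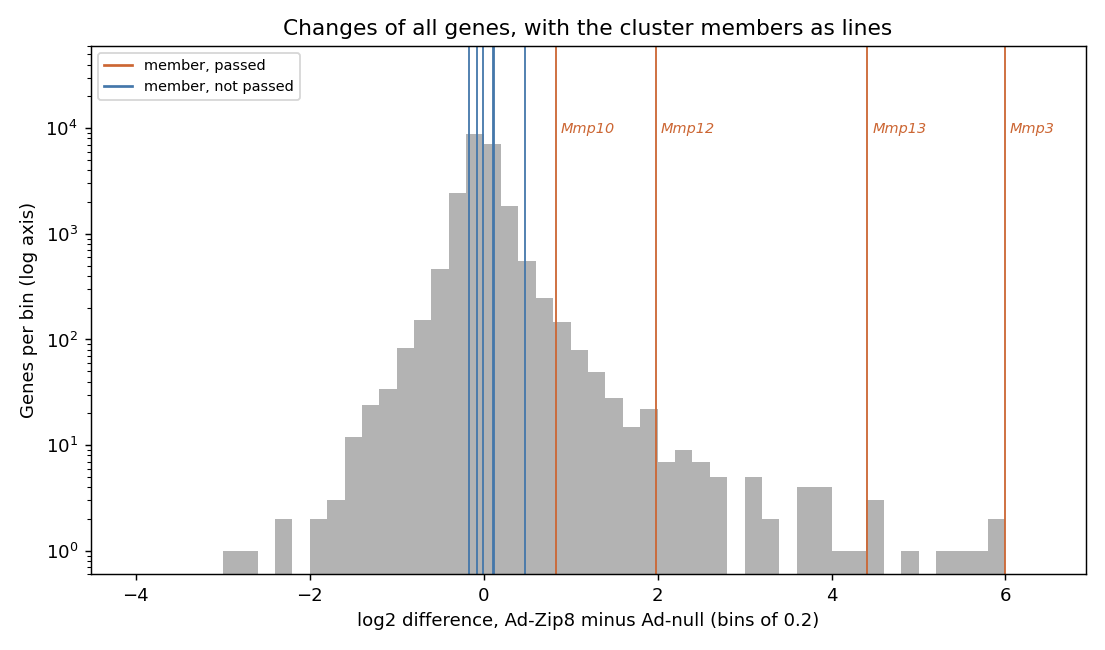
Number of genes (vertical log axis) by log2 difference, Ad-Zip8 minus Ad-null (horizontal axis, bins of 0.2), for the 22180 genes, with orange lines for the 4 members that passed and blue lines for the 6 that did not. Mmp3 at 5.99 and Mmp13 at 4.41 stand in the far right tail, and the members in blue lie between -0.16 and 0.47.

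By point estimate of the increase among the 22180 genes, Mmp3 ranked 1 (2 once replicate 2 of Ad-null or replicate 4 of Ad-Zip8 was left out). Over the limma fit and its alternatives Mmp13 ranked 7 to 9, Mmp12 48 to 69 and Mmp10 264 to 471. These ranks set different probe sets side by side and do not account for their errors. A search for like genes left out the other members, predicted and clone-named genes and small RNA genes. It also left out olfactory and vomeronasal receptor genes, and immunoglobulin and T cell receptor segments. For the rest, each gene's Ad-null mean was subtracted from its 8 log2 values. The genes most like each of the top 2 members had the smallest root mean square difference from it. For Mmp3 they were Saa2, an acute-phase gene whose value is uncertain beside its near-identical neighbour Saa1 (0.22), the chemokine genes Cxcl5 (0.49) and Cxcl3 (0.65), the haptoglobin gene Hp (0.55) and Slc39a8 itself (0.85). For Mmp13 they were the metalloreductase gene Steap4 (0.17), the acute-phase gene Saa3 (0.20), the lipopolysaccharide-binding protein gene Lbp (0.29), the vanin gene Vnn1 (0.40) and the protease inhibitor gene Slpi (0.46). Steap4 and Saa3 had a narrow Ad-Zip8 spread like Mmp13 (SD 0.11 and 0.04, against 0.08) and a wide Ad-null spread (SD 0.64 and 0.66, against 0.58). They were picked for their small difference from Mmp13 on all 8 arrays, so this likeness of spread follows from the choice. The measure follows mostly the group difference, over 8 arrays.

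Along the chromosome the order was Mmp13, Mmp12, Mmp1b, Mmp3, Mmp1a, Mmp10, Mmp8, Mmp27, Mmp20 and Mmp7, per the RefSeq gene table (GRCm38.p6), with 0 other protein-coding genes between them. The 4 genes that rose lay among the first 6, with Mmp1b and Mmp1a between them at log2 differences of -0.16 and -0.01. None of the last 4 passed.

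Of the 20 nearest measured protein-coding neighbours, 10 on each side, 6 rose, 1 fell and 13 stayed short of the threshold. Their median log2 difference was 0.11. Over all genes 5.48% rose and 5.12% fell, with a median of -0.02. On the Mmp13 side Casp4, an inflammatory caspase gene, went from 7.52 to 8.08 on the Ad-null arrays to 9.35 to 9.60 on the Ad-Zip8 arrays (3.34-fold, limma adjusted p = 2.50e-05). The caspase gene Casp12 rose 1.54-fold, the dynein heavy chain gene Dync2h1 1.38-fold and Dcun1d5, next to Mmp13, 1.25-fold. On the Mmp7 side the inhibitor-of-apoptosis genes Birc2 and Birc3 rose 1.78-fold and 1.77-fold (limma adjusted p = 6.58e-04 and 0.00168). Tmem123, which lies between Mmp7 and Birc2, had a log2 difference of 0.14 (adjusted p = 0.384), and the centrosome gene Cep126 fell 1.38-fold. Except for Casp4, the neighbours that rose did so by 1.25- to 1.78-fold. The remaining neighbours (Kbtbd3, Msantd4, Gria4, Casp1, Pdgfd, Ddi1, Yap1, Cfap300, Trpc6, Pgr, Arhgap42 and Cntn5) had log2 differences of -0.27 to 0.50.

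**Figure D3:**
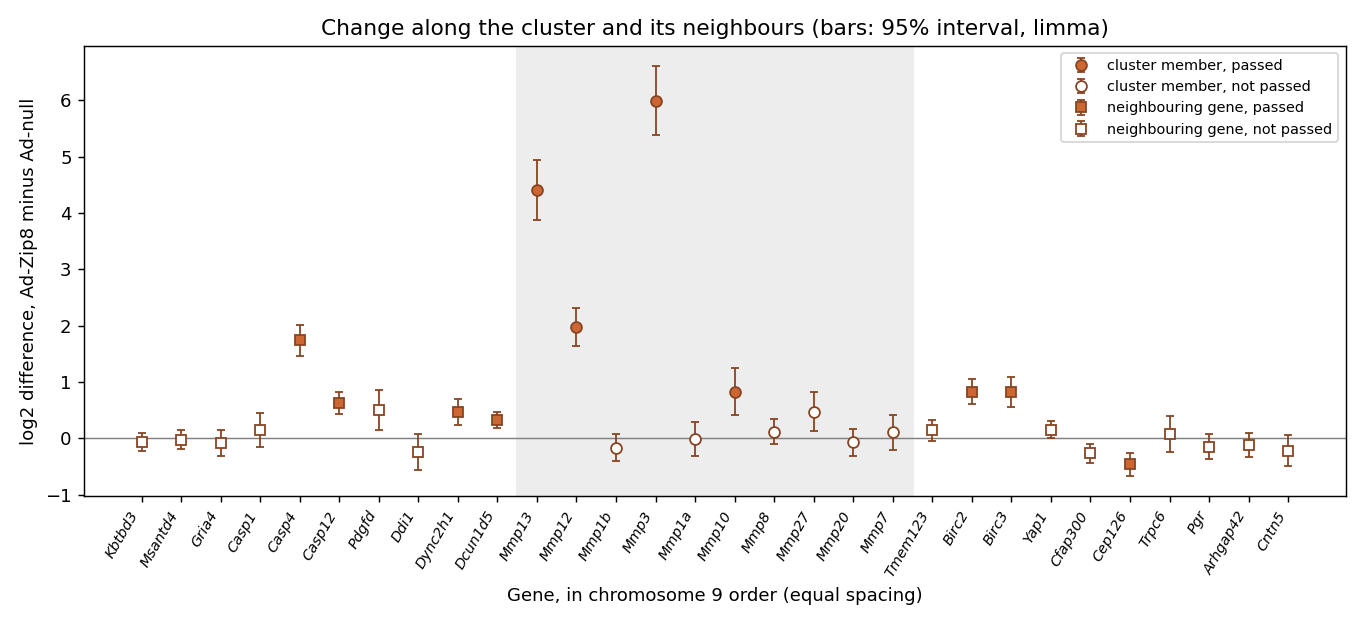
log2 difference, Ad-Zip8 minus Ad-null (vertical axis), with 95% limma intervals, for the cluster (circles on grey) and 10 neighbouring genes on each side (squares), in chromosome order with equal spacing; filled symbols passed the test. Mmp13, Mmp12, Mmp3 and Mmp10 are filled, Mmp1b and Mmp1a between them lie near 0, and Casp4 at 1.74 is the largest neighbour.

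Of 12 measured Mmp genes outside the cluster, 3 rose and 1 fell, against 5.48% higher and 5.12% lower over all genes. The gelatinase gene Mmp9 rose 4.60-fold (limma adjusted p = 8.05e-05) and the gelatinase gene Mmp2 1.59-fold (adjusted p = 8.59e-04), and Mmp16 fell 1.73-fold (adjusted p = 3.54e-04). Mmp14, which encodes a membrane enzyme able to activate the MMP13 precursor, had a log2 difference of -0.04 (interval -0.33 to 0.26). The third to rise, Mmp19 (1.64-fold, adjusted p = 0.0399), was not called once Ad-null replicate 1, 2 or 3, or replicate 1, 3 or 4 of Ad-Zip8, was left out (adjusted p up to 0.0994).

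Genes that act on these enzymes were counted in lists, beside the 5.48% of all genes that rose and the 5.12% that fell. Among 13 genes listed as activators of matrix metalloproteinase precursors, 2 rose, 1 fell and 10 stayed short of the threshold. The median log2 difference was -0.04. The list was broad and also took in Plat, Plau and Plaur, which act through plasminogen, and Htra1. The cathepsin B gene Ctsb rose 1.47-fold, and the proprotein convertase gene Pcsk6 fell 1.66-fold. Plat, which encodes the tissue plasminogen activator, rose 1.64-fold (limma adjusted p = 0.0173), a call lost once Ad-null replicate 1 (0.0541) or replicate 1 of Ad-Zip8 (0.0534) was left out. Among 8 inhibitors and clearance genes, 2 rose, 1 fell and 5 stayed short of the threshold (median 0.03). Timp1, a tissue inhibitor gene, rose 1.74-fold (adjusted p = 0.00169), Timp3 fell 1.34-fold (adjusted p = 0.00202), and Timp2 had a log2 difference of 0.02 (interval -0.15 to 0.18). The second to rise, the protease inhibitor gene Tfpi2 (adjusted p = 0.0400), lost its call with the replicate block (0.0970), with array weights (0.0600), and once Ad-null replicate 1 or 3, or replicate 1, 3 or 4 of Ad-Zip8, was left out (up to 0.112). In log2 terms the rise of Timp1, 0.80, was smaller than those of Mmp3, Mmp13 and Mmp12.

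Of 26 genes of ligands, receptors and their antagonists, from signals known to raise these enzymes, 16 rose, against 5.48% of all genes. With each array left out in turn, 13 to 14 rose. All lists here were chosen with earlier results of these data known, so such counts are not independent of those results. In the limma fit 0 fell (1 lower at an unadjusted p under 0.05), and the median log2 difference was 0.41. The 1 lower, the collagen receptor gene Ddr2, fell with a variance trend (adjusted p = 0.00906) or with dim genes left out (0.0226). The oncostatin M receptor gene Osmr rose 2.12-fold, the interleukin 1 receptor gene Il1r1 2.51-fold, the Toll-like receptor genes Tlr2 2.79-fold and Tlr4 2.02-fold, and the growth factor gene Fgf2 2.11-fold. Some genes were named after their values were seen. Il6 rose 3.78-fold, from a mean of 3.91 to 5.83, the largest rise of the list. Tnf rose 1.30-fold (adjusted p = 0.0356), and Il1rn, whose product blocks the interleukin 1 receptor, rose 1.45-fold (adjusted p = 0.0300). Tnf lost its call once any array but Ad-null replicate 4 was left out (adjusted p up to 0.0907). Il1rn lost its call once Ad-null replicate 2, 3 or 4, or replicate 2 or 3 of Ad-Zip8, was left out (up to 0.0812). Il1a and Il1b had means between 3.14 and 3.37 in both groups, well below the array medians, and did not pass (adjusted p = 0.692 and 0.919).

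Of 29 listed transcriptional regulators 26 were measured, which leaves out Runx2, Nfkb1 and Fosl1. Of the 26, 15 rose, against 5.48% of all genes, and 14 to 16 rose with each array left out in turn. This list too was chosen with earlier results of these data known. In the limma fit 0 fell (1 lower at an unadjusted p under 0.05), and the median was 0.41. The 1 lower, Atf3, fell with a variance trend (adjusted p = 0.0400) or with dim genes left out (0.0418). Cebpd rose 5.93-fold, Nfkbiz, a regulator of NF-kB targets, 5.12-fold, Epas1, which encodes HIF-2 alpha, 3.86-fold, the AP-1 family gene Batf 2.93-fold and Cebpb 2.63-fold. Fos rose 1.81-fold, whereas Jun had a log2 difference of 0.12 (interval -0.10 to 0.35, adjusted p = 0.541). Of the other Fos and Jun genes measured, named after their values were seen, Junb rose 2.24-fold, Fosl2 1.88-fold and Fosb 1.46-fold, and Jund had a log2 difference of -0.09. Mtf1, which encodes the zinc-sensing factor, had a log2 difference of 0.07 (interval -0.13 to 0.27, adjusted p = 0.713). These are transcript levels and say nothing of the factors' activity.

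Of 29 measured matrix genes that these enzymes can act on or that lie beside their substrates, 13 fell, 4 rose and 12 stayed short of the threshold (median -0.30). Over all genes 5.12% fell and 5.48% rose. Only 1 of the 29 had a mean below the median of all genes. With dim genes left out, 16 of the 28 kept fell and 3 rose, against 1625 and 1297 of 11090 genes. From 10 to 13 fell with each array left out in turn, and 16 with a variance trend. The tenascin gene Tnc fell 2.23-fold, the matrilin gene Matn1 2.20-fold and the collagen X gene Col10a1 2.51-fold, and Acan, the aggrecan gene, fell 1.46-fold. The proteoglycan genes Lum and Dcn rose 1.90-fold and 1.63-fold. Col2a1, the gene of the collagen that MMP13 cuts, had a log2 difference of -0.22 (interval -0.38 to -0.07, adjusted p = 0.0790). A variance trend (adjusted p = 0.00587) or a filter on dim genes (0.0206) brought it past the threshold.

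**Figure D4:**
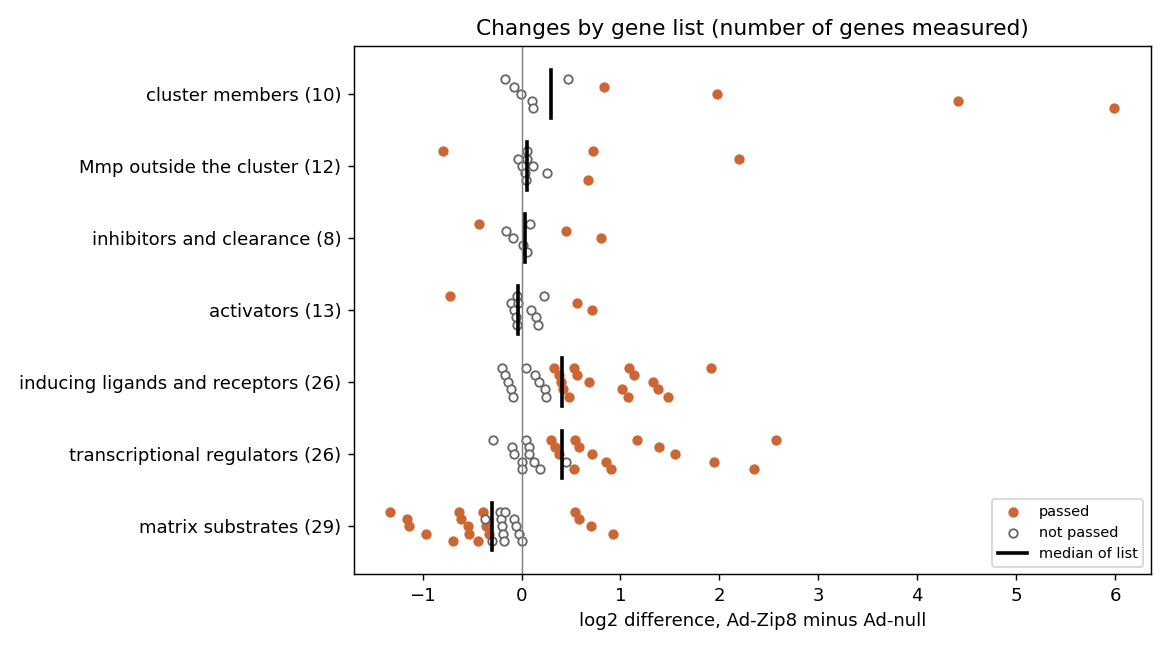
log2 difference, Ad-Zip8 minus Ad-null (horizontal axis), of every measured gene in the cluster and in the pathway lists (vertical axis, with the number of genes; cell type markers are not drawn); filled points passed the test and black ticks are medians. The drawn medians run from -0.30 for the matrix substrates to 0.41 for the ligands, receptors and regulators, and 2 cluster members lie beyond every listed gene.

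Markers of other cell types were read beside the members, and the genes named from them were chosen after their values were seen. Over all genes 5.48% rose and 5.12% fell. Of 12 neutrophil markers, 2 rose (Mmp9 and Camp) and 0 fell in the limma fit (0 at an unadjusted p under 0.05). Camp lost its call with the replicate block (adjusted p = 0.0697), with repeated quantile normalization (0.0538), and once Ad-null replicate 1 or 4, or replicate 1, 3 or 4 of Ad-Zip8, was left out (up to 0.112). The mean of the neutrophil list was 4.03 to 4.38 on the Ad-null arrays and 4.42 to 4.58 on the Ad-Zip8 arrays. Mmp9, itself an Mmp gene, had the largest log2 difference of the list (2.20), whereas the list median was 0.09. The defining neutrophil genes S100a8 (group means 2.76 and 2.78) and S100a9 (3.91 and 4.01) lay below the array medians in both groups. Of 9 osteoclast markers 1 rose, again Mmp9, with list means of 5.00 to 5.16 and 5.39 to 5.47. The median log2 difference of this list was 0.04, against 2.20 for Mmp9. Of 9 fibroblast markers Pdpn and Pdgfra rose and Cd248 fell, with list means of 6.54 to 6.87 and 6.81 to 7.07. The call of Cd248 was lost once Ad-null replicate 1, 2 or 4, or replicate 2 or 4 of Ad-Zip8, was left out (adjusted p up to 0.0685). Of 6 osteoblast markers Ibsp rose and Sp7 fell. Of 6 muscle markers Acta1 fell (adjusted p = 0.0410), which was not so with array weights or in 7 of the 8 fits that left out an array (up to 0.111). Endothelial markers had 0 of 8 past the limma test in either direction (0 at an unadjusted p under 0.05). The part of these lists in the members' changes was not tested.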

How the data were processed

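Total RNA of 8 chondrocyte cultures (4 Ad-null, 4 Ad-Zip8) was labelled with biotin and hybridised to 1 array each, per the labels' protocols. The authors deposited log2 values; the submitters' processing notes name RMA, without a version. The platform annotation gives 1 gene symbol for 23521 of the 41345 probe sets, several for 1814 and none for 16010. The highest-mean probe set was kept for each of 22180 genes. Array medians were 5.04 to 5.11. Protein sequences were not used here. No detection calls were used, and the number of arrays limits the precision.

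Groups were compared with limma 3.58.1 (R 4.3.3; lmFit, eBayes, two-sided, Benjamini-Hochberg), without covariates or a filter, after a test on simulated data. A fold change is 2 to the power of a difference of group means. The members and lists were chosen with earlier results of these data known. Text names all members, Slc39a8, the neighbours, the 5 genes most like each of the 2 members with the largest change, and from each list up to 5 genes of smallest adjusted p plus preset ones; others are said to be chosen after their values were seen.

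Both groups carry replicate numbers 1 to 4. Deviations from group means correlated at 0.11 to 0.37 between same-numbered arrays and at -0.27 to 0.16 between others. The numbers were thus read as a possible pairing, inferred from the data. The main fit and the exact test did not use it, and a block on the replicate number was among the alternatives. Over all genes arrays correlated at 0.991 to 0.993 within groups and at 0.979 to 0.986 between groups. Alternatives changed scaling, filter, variance trend, block, array weights, probe set choice, promoter window and left out each array.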

Additional observations from a re-analysis of the deposited data

Results flagged for a closer look

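In 80 groups of 4 arrays (40 genes in both conditions), 6 held an array whose gap to the next value was large for the group's range, by Dixon's criterion; chance gives about 1 in 20. Mmp8 read 4.09 in Ad-null replicate 1, below the other 3 arrays, within a group range of 0.11 log2 units. Among the neighbours, Trpc6 read 4.11 in Ad-null replicate 3, Pgr 3.69 in Ad-Zip8 replicate 1 and Arhgap42 8.68 in Ad-null replicate 4. Among the genes most like Mmp3 and Mmp13, Cxcl5 read 11.9 in Ad-Zip8 replicate 1, the array that was also highest for Mmp3, and Slpi read 6.63 in Ad-null replicate 2.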

How the results depend on the processing

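Over 15 alternatives, Mmp3 (log2 difference 5.78 to 6.19) and Mmp13 (4.21 to 4.67) passed in all, as did Mmp12 (1.89 to 2.11) in the 14 that kept it. Mmp10 passed in 12 (0.69 to 0.97 when each array was left out), and was weaker without Ad-null replicates 1, 2 and 4, at log2 differences of 0.76, 0.76 and 0.82, which left 3 members that rose in place of 4. The cause was not tested. The 6 other members passed in none of the 14 that kept them. Leaving out dim genes (mean over all arrays below 5.64) kept only Mmp3, Mmp10 and Mmp13; Mmp3 and Mmp10 were kept through their Ad-Zip8 values (Ad-null means 5.38 and 5.34), so that they passed there supports nothing. With the replicate block 1278 genes rose and 1059 fell, against 1216 and 1136, and the member calls were the same. Adjusted p-values with the block were 9.60e-06 for Mmp3, 1.93e-04 for Mmp13, 8.09e-04 for Mmp12 and 0.0324 for Mmp10, all larger than in the main fit. Leaving out each array gave 924 to 1119 genes that rose and 708 to 923 that fell, lowest for falls without Ad-Zip8 replicate 1 and Ad-null replicate 1 (721), with fewer samples. With the filter, which tests fewer genes (11090), 1297 rose and 1625 fell, and with the variance trend 1414 and 1621; with arrays centred on their medians 1210 rose and 899 fell. The median of all genes stayed between -0.04 and -0.01. Of the neighbours, Cfap300 and Pdgfd changed call in some alternatives. With the 250 bases before the start only, 6.75% of promoters held the AP-1 letters. Signal over background limits Mmp1a, Mmp1b, Mmp7, Mmp8 and Mmp20.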
